A study of Homo sapiens with 9 samples.

Results

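The genes described here are 57 human genes whose products license and fire replication origins, build the DNA replication fork and restore chromatin behind it. They were chosen by name, and each was read from the brightest probe set that the array annotation gives to that gene alone. All 57 were measured, among 18417 genes that could be named in this way from the 33297 probe sets of the array. The cells were of the line H295R, which was derived from a human adrenocortical carcinoma and secretes adrenal steroids, and every culture had first spent 24 h in normal growth medium. Then 3 groups of 3 cultures, named by the letters A, B and C, were kept for 48 h in one of the following: normal growth medium, serum-free medium (serum starvation), and serum-free medium with 10 mM metformin. The metformin cultures were therefore starved as well, and metformin without starvation was not analysed here. Metformin is a biguanide drug used against diabetes that inhibits complex I of the mitochondrial respiratory chain. Total RNA of each culture was read on 1 GeneChip Human Gene 1.0 ST array, and the design text describes the cultures as independent experiments with 1 cell line.

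DNA replication starts at origins, where the origin recognition complex, CDC6 and CDT1 load the MCM2 to MCM7 helicase in G1 phase, a step called licensing. In S phase the kinases CDC7 and CDK2 turn the loaded helicase into an active fork by adding CDC45 and the GINS complex, after which primase and the polymerases copy both strands, the clamp PCNA keeps the polymerases on DNA, and FEN1 and LIG1 join the Okazaki fragments. Many of these genes are known targets of the E2F transcription factors, which RB holds back in resting cells and which cyclin E and CDK2 release as cells commit to S phase.

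Because E2F is the factor class that these genes are known to share, their promoters were searched for the words TTTCCCGC, TTTCGCGC, TTTGCCGC and TTTGGCGC on both strands, in RefSeq windows of build GRCh38.p14 that run from 250 bases before to 50 bases after a start site. Of the 57 genes 49 had a window, and the unmatched genes were MCM4, MCM5, GINS4, CCNE2, POLD3, RPA2, RPA3 and DNA2. At least 1 word stood in the windows of 26 of the 49, which is 53.1%, against 5.51% of the 14239 named genes with a window (784 genes) and 3.31% of all 35116 windows. The stretches below show the first word of the window in capitals, written 5′ to 3′ on the strand of the gene, for 6 genes that were lower with metformin than in starvation (MCM2, MCM7, CDC6, DTL, UHRF1 and LIG1) and for 2 that did not pass that test (ORC3 and POLE2). In MCM2 the capitals hold 2 overlapping words, TTTCGCGC and the reverse complement GCGCGAAA. Of the genes shown, MCM7 and UHRF1 have 3 windows each and the others 1.
MCM2, chr3:127598377-127598440, plus strand: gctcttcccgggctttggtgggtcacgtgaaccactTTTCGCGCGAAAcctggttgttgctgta
MCM7, chr7:100101541-100101620, minus strand: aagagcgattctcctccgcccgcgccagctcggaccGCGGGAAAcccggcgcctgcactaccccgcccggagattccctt
CDC6, chr17:40287850-40287908, plus strand: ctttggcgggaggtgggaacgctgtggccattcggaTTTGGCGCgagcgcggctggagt
DTL, chr1:212035704-212035777, plus strand: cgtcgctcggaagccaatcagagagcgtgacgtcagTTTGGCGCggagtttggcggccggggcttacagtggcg
UHRF1, chr19:4909451-4909530, plus strand: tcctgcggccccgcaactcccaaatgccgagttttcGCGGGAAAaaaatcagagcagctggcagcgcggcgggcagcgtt
LIG1, chr19:48170415-48170494, minus strand: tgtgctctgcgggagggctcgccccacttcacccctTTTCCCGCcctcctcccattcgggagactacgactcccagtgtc
ORC3, chr6:87590087-87590164, plus strand: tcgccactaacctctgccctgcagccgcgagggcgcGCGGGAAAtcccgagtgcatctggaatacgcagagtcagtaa
POLE2, chr14:49688185-49688255, minus strand: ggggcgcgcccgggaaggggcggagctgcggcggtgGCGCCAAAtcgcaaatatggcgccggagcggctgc
The word begins 2 bases after the start site in MCM2 and 7 bases after it in CDC6, and it begins before the start site by 187 bases in MCM7, 114 in LIG1, 14 in UHRF1, 12 in ORC3, 8 in DTL and 5 in POLE2. Of the 18 genes lower with metformin than in starvation that had a window, 11 held a word (61.1%), and of the 31 others 15 did (48.4%). For the call against normal growth these numbers were 18 of 28 (64.3%) and 8 of 21 (38.1%). No word was found in the windows of ORC1, CDC45, MCM10, RFC2, FEN1, POLD1 and CHAF1A, which were also lower with metformin. A word is a match of letters and no binding was measured.

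The values are log2 signals after RMA, the robust multi-array average, in which 1 unit is a 2-fold difference. They do not compare one gene with another, because probe sets differ in how brightly they bind. Array medians ran from 6.04 to 6.16, and correlations over all probe sets were 0.996 to 0.997 within normal growth, 0.994 to 0.997 within starvation and 0.990 to 0.995 within metformin, with the lowest value of all, 0.984, between starved array B and metformin array A. Of 10 adrenocortical markers 7 lay above the array median on every array, among them NR5A1, STAR, CYP11A1 and CYP17A1, whereas 0 of 7 immune, 1 of 8 endothelial, 3 of 10 fibroblast and 3 of 9 epithelial markers did. Of the 57 replication genes only DBF4, at 4.94 to 5.43, lay below the median of every array. A change is given with its standard error after ±, from 3 arrays against 3, and was called when limma gave a Benjamini-Hochberg adjusted p under 0.05 over all probe sets. The arrays measure RNA from whole cultures, so fewer cells in S phase and less replication RNA per cell cannot be told apart.

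Serum starvation alone gave no called change among the replication genes, whereas many were lower in starvation with metformin. None of the 57 was called in either direction in starvation against normal growth (limma), where 0.163% of named genes were called lower and 0.0652% higher. With metformin, 21 of 57 were lower than in starvation (36.8%) and none was higher, against 2.89% of named genes called lower and 3.14% higher. Against normal growth, 33 of 57 were lower with metformin (57.9%) and none was higher, against 6.36% lower and 6.15% higher of the named genes. All 21 genes were among the 33, but the metformin arrays are the same in both comparisons, so these are not independent counts. The median log2 change of the 57 genes was -0.03 in starvation, -0.34 with metformin against starvation and -0.45 with metformin against normal growth, beside medians of -0.00072, -0.03 and -0.02 over all named genes. The counts changed when single arrays were left out. Without starved array A, B or C, or without metformin array A, limma called none of the 57 genes against starvation. It also called none of the 18417 named genes lower. In these fits 32, 42, 31 and 38 of the 57 were lower at an unadjusted p under 0.05, with medians of -0.35, -0.39, -0.32 and -0.39. The matching counts over all named genes were not made for these fits. With all arrays, limma gave 38 of the 57 and 2085 of 18417 named genes lower at that threshold. Without metformin arrays B and C it called 14 and 17 of the 57 lower after adjustment, beside 282 and 312 of the named genes. Against normal growth the counts of the 57 were 9, 10 and 9 without normal-growth arrays A, B and C, beside 187, 200 and 201 of the named genes. They were 19, 27 and 33 without metformin arrays A, B and C, beside 662, 847 and 1246 of the named genes. The methods' t-test on all arrays called 12 of the 57 lower against starvation and 14 against normal growth, beside 264 and 609 of the named genes.

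**Figure D1:**
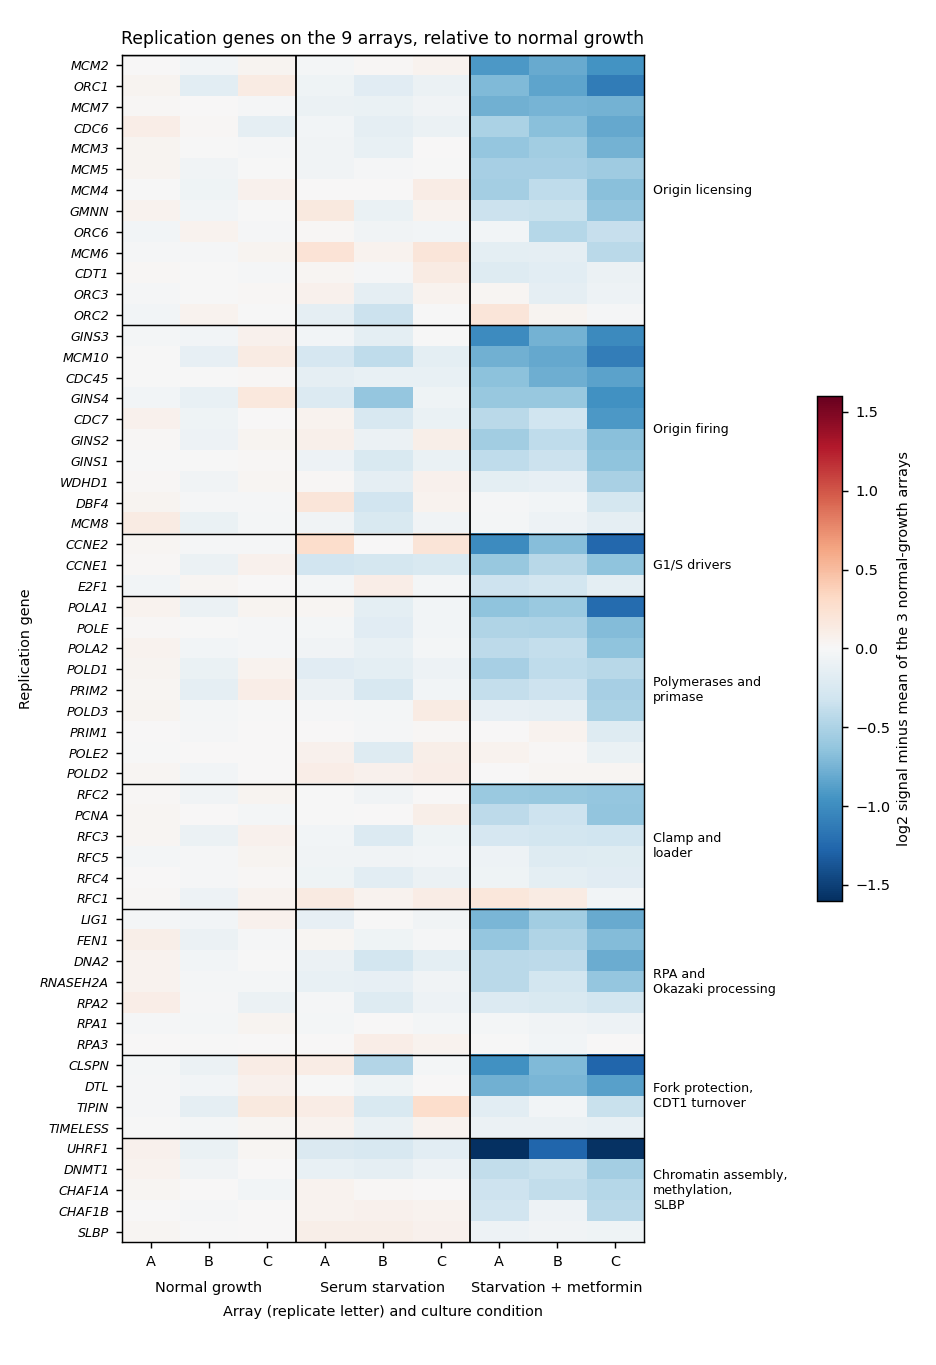
Each row is 1 of the 57 replication genes, grouped by role and ordered within a role by its mean on the metformin arrays, and each column is 1 of the 9 arrays. Colour gives the log2 signal minus the gene's mean on the 3 normal-growth arrays, with blue for lower and red for higher. The metformin columns are blue in most rows (medians -0.41, -0.35 and -0.57 on arrays A, B and C), and the starved columns are pale (medians -0.02, -0.12 and -0.02).

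The low readings were on all 3 metformin arrays. Relative to the normal-growth mean, the median over the 57 genes was -0.41, -0.35 and -0.57 on metformin arrays A, B and C, and between -0.12 and 0.02 on the other 6 arrays. Metformin array C was the lowest of its group for 46 of the 57 genes, starved array B for 42 and normal-growth array B for 40. Over all 18417 named genes these counts were 6844, 7501 and 6793. All 3 metformin arrays lay below all 3 starved arrays for 42 of 57 genes (73.7%), against 15.2% of named genes, and below all 3 normal-growth arrays for 45 of 57 (78.9%), against 19% of named genes. For 41 of 57 genes they lay below all 6 other arrays, against 12.7% of named genes, and these included all 21 that were called in both comparisons.

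Of 13 genes that act first, in origin licensing, 7 were lower with metformin than in starvation (53.8%) and 8 lower than in normal growth (61.5%). Of the 6 subunits of the MCM2 to MCM7 helicase, 5 were called in both comparisons. MCM2 read 10.02, 9.97 and 10.06 in normal growth, 9.99, 10.04 and 10.08 in starvation and 9.10, 9.21 and 9.06 with metformin. The metformin arrays lay well below the rest, which overlapped each other, and the log2 change against starvation was -0.91 ± 0.06, adjusted p = 0.0119, or 1.88-fold lower. MCM7 read 10.69, 10.67 and 10.65 in normal growth, 10.57, 10.56 and 10.62 in starvation and 9.90, 9.93 and 9.91 with metformin. Its 3 metformin arrays were within 0.03 of each other and below all others, with a change of -0.67 ± 0.05, adjusted p = 0.0119 against starvation and -0.76 ± 0.05, adjusted p = 0.0032 against normal growth. The other called subunits were MCM3 (-0.59 ± 0.07, adjusted p = 0.0197), MCM4 (-0.58 ± 0.08, adjusted p = 0.0263) and MCM5 (-0.51 ± 0.05, adjusted p = 0.0155), each against starvation. MCM6 was the subunit that did not pass, at 9.67, 9.67 and 9.73 in normal growth, 9.92, 9.75 and 9.89 in starvation and 9.53, 9.55 and 9.27 with metformin. Starvation readings of MCM6 were the highest of the 3 groups and its metformin readings the lowest, with no overlap between groups, and the changes were 0.16 ± 0.06, adjusted p = 0.565 in starvation, -0.40 ± 0.10, adjusted p = 0.0883 with metformin against starvation and -0.24 ± 0.09, adjusted p = 0.171 against normal growth.

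The loaders of the helicase did not all pass the test. ORC1, the subunit of the origin recognition complex that human cells degrade in S phase, read 7.83, 7.61 and 7.91 in normal growth, 7.72, 7.61 and 7.69 in starvation and 7.08, 6.94 and 6.66 with metformin. Metformin readings were below the others and differed among themselves by 0.42, and the change was -0.78 ± 0.12, adjusted p = 0.0271 against starvation. CDC6, the ATPase that joins the origin complex to load MCM, read 10.30, 10.22 and 10.06 in normal growth, 10.16, 10.06 and 10.10 in starvation and 9.69, 9.53 and 9.38 with metformin. All metformin readings were lower than any other, by -0.57 ± 0.09, adjusted p = 0.0323 against starvation and -0.66 ± 0.10, adjusted p = 0.0187 against normal growth. CDT1, the partner of CDC6 in loading, read 8.01, 7.99 and 7.97 in normal growth, 8.02, 7.97 and 8.12 in starvation and 7.79, 7.82 and 7.89 with metformin. The metformin arrays were the lowest for CDT1 as well, but the distance was small and the change of -0.20 ± 0.07, adjusted p = 0.159 did not pass. ORC2, another origin complex subunit, read 8.0, 8.10 and 8.04 in normal growth, 7.91, 7.70 and 8.04 in starvation and 8.24, 8.09 and 8.02 with metformin. Here the groups overlapped, starved array B was lowest, and the change of 0.23 ± 0.11, adjusted p = 0.307 against starvation was the largest positive one of the 57 genes. ORC3 and ORC6, at log2 changes of -0.06 and -0.26 against starvation, also overlapped. GMNN, the protein geminin that inhibits CDT1, had -0.48 ± 0.11, adjusted p = 0.0748 against starvation and -0.45 ± 0.09, adjusted p = 0.0365 against normal growth, so that only the second passed.

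Of 10 origin firing genes, 4 were lower with metformin than in starvation (CDC45, GINS2, GINS3 and MCM10) and 6 lower than in normal growth, which added GINS1 and GINS4. CDC45, the helicase cofactor recruited when an origin fires, read 9.89, 9.89 and 9.91 in normal growth, 9.76, 9.78 and 9.78 in starvation and 9.24, 9.11 and 9.04 with metformin. The 3 groups did not overlap for CDC45, with normal growth highest, and the change was -0.64 ± 0.07, adjusted p = 0.0165 against starvation, while the starvation change of -0.12 ± 0.04, adjusted p = 0.437 did not pass. GINS3, a subunit of the 4-protein GINS ring of the active helicase, read 9.92, 9.90 and 10.02 in normal growth, 9.91, 9.79 and 9.95 in starvation and 8.94, 9.19 and 8.93 with metformin. Its metformin readings lay at least 0.60 below every other reading, with a change of -0.86 ± 0.09, adjusted p = 0.0167. GINS2 read 10.51, 10.41 and 10.54 in normal growth, 10.57, 10.40 and 10.58 in starvation and 9.93, 10.08 and 9.82 with metformin, and these metformin readings too lay below the rest (-0.57 ± 0.09, adjusted p = 0.032).

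The remaining GINS subunits were called only against normal growth. GINS1 read 10.22, 10.22 and 10.25 in normal growth, 10.15, 9.98 and 10.12 in starvation and 9.82, 9.89 and 9.59 with metformin. Starved readings were a little below normal growth (-0.15 ± 0.06, adjusted p = 0.598) and metformin readings below both, and the change was -0.32 ± 0.10, adjusted p = 0.143 against starvation and -0.46 ± 0.09, adjusted p = 0.0295 against normal growth. GINS4 read 8.21, 8.14 and 8.42 in normal growth, 8.04, 7.63 and 8.18 in starvation and 7.65, 7.66 and 7.29 with metformin. Starved array B was below metformin arrays A and B, so the groups overlapped against starvation (-0.42 ± 0.17, adjusted p = 0.258), while against normal growth the change was -0.73 ± 0.13, adjusted p = 0.0263. The starvation change of GINS4, -0.30 ± 0.16, adjusted p = 0.73, was the most negative of the 57 but not called. All 4 GINS genes were thus called against normal growth and 2 of 4 against starvation.

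MCM10, which helps to activate the helicase and brings in polymerase alpha, read 9.13, 9.01 and 9.27 in normal growth, 8.87, 8.73 and 8.99 in starvation and 8.37, 8.32 and 8.03 with metformin. Its 3 groups were ordered without overlap, normal growth above starvation above metformin, with -0.27 ± 0.10, adjusted p = 0.517 in starvation, -0.63 ± 0.12, adjusted p = 0.0449 with metformin against starvation and -0.90 ± 0.12, adjusted p = 0.0121 against normal growth. CDC7, the kinase that phosphorylates MCM at firing, and DBF4, its activating subunit, were not called: their log2 changes were -0.45 and -0.10 against starvation. WDHD1, which links the helicase to polymerase alpha, had a change of -0.25, and MCM8, a relative of the MCM helicase that works mainly in recombination, had 0.04. The starved and metformin readings overlapped for DBF4, WDHD1 and MCM8, but not for CDC7.

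**Figure D2:**
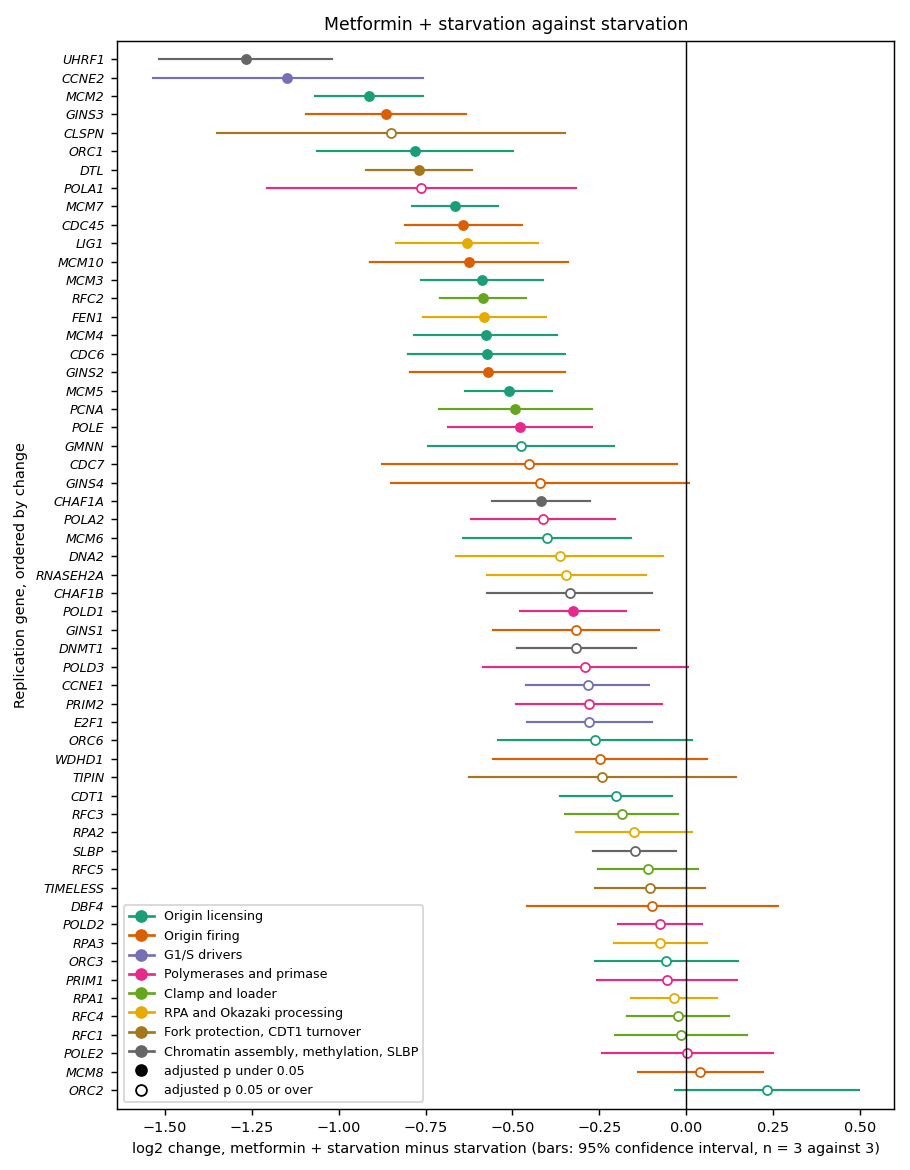
Points give the log2 change of each of the 57 replication genes in starvation with metformin against starvation, with bars for the 95% confidence interval (limma, 3 arrays against 3), coloured by role. Filled points passed an adjusted p of 0.05. The changes run from -1.27 for UHRF1 to 0.23 for ORC2, 54 of 57 lie below 0, and the 21 filled points all lie below 0.

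Of the 3 genes that drive the G1 to S transition, 1 was lower with metformin than in starvation and 2 were lower than in normal growth. CCNE2, one of the E-type cyclins that activate CDK2, read 9.62, 9.56 and 9.57 in normal growth, 9.87, 9.60 and 9.79 in starvation and 8.58, 8.91 and 8.33 with metformin. Starved readings were level with or above normal growth, and metformin readings were far below both and spread over 0.57, with -1.15 ± 0.16, adjusted p = 0.0246 against starvation, or 2.21-fold lower, and -0.98 ± 0.14, adjusted p = 0.0158 against normal growth. CCNE1, the other E-type cyclin, read 9.87, 9.76 and 9.93 in normal growth, 9.55, 9.57 and 9.61 in starvation and 9.25, 9.42 and 9.21 with metformin. All starved readings of CCNE1 were below normal growth and all metformin readings below starvation; the starvation change of -0.28 ± 0.06, adjusted p = 0.212 had the lowest adjusted p of the 57 genes in that comparison, and the metformin changes were -0.28 ± 0.07, adjusted p = 0.0937 against starvation and -0.56 ± 0.08, adjusted p = 0.0147 against normal growth. E2F1, a transcription factor of the E2F family, read 9.50, 9.59 and 9.56 in normal growth, 9.52, 9.65 and 9.52 in starvation and 9.21, 9.26 and 9.39 with metformin. Its metformin readings were the lowest 3 of 9, yet neither metformin change passed (-0.28 ± 0.07, adjusted p = 0.104 against starvation, -0.26 ± 0.06, adjusted p = 0.0628 against normal growth).

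Among the 9 polymerase and primase genes, 2 were lower with metformin than in starvation and 5 lower than in normal growth. POLA1, the catalytic subunit of polymerase alpha, read 8.60, 8.45 and 8.59 in normal growth, 8.57, 8.38 and 8.51 in starvation and 7.91, 7.96 and 7.32 with metformin. Metformin array C was much lower than A and B, all 3 were below the other groups, and with this spread the change of -0.76 ± 0.18, adjusted p = 0.0812 against starvation did not pass, while -0.82 ± 0.18, adjusted p = 0.0449 against normal growth did. POLD1, the catalytic subunit of the lagging-strand polymerase delta, read 9.05, 8.90 and 9.06 in normal growth, 8.82, 8.85 and 8.93 in starvation and 8.47, 8.59 and 8.56 with metformin. Metformin readings were the lowest 3 of 9, the change against starvation was the last to pass (-0.33 ± 0.06, adjusted p = 0.048), and against normal growth it was -0.46 ± 0.07, adjusted p = 0.016. POLE, the catalytic subunit of the leading-strand polymerase epsilon, was lower in both (-0.48 ± 0.08, adjusted p = 0.0401 against starvation). PRIM2, the large primase subunit, read 7.79, 7.61 and 7.86 in normal growth, 7.67, 7.50 and 7.71 in starvation and 7.38, 7.42 and 7.23 with metformin. Metformin readings were the lowest for PRIM2, with -0.28 ± 0.09, adjusted p = 0.142 against starvation and -0.41 ± 0.09, adjusted p = 0.0439 against normal growth. POLA2, the B subunit of polymerase alpha, was the first outside the threshold against starvation (-0.41 ± 0.08, adjusted p = 0.0572) and was called against normal growth (-0.48 ± 0.08, adjusted p = 0.024). The accessory subunits POLD2 and POLE2 and the small primase subunit PRIM1 were at -0.08, 0.00 and -0.06 against starvation, and POLD3 was at -0.29; none of these 4 passed in any comparison.

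The clamp and its loader differed between subunits. PCNA, the sliding clamp, read 10.35, 10.32 and 10.29 in normal growth, 10.31, 10.33 and 10.42 in starvation and 9.90, 9.99 and 9.69 with metformin. The metformin readings were the lowest 3 of 9, by -0.49 ± 0.09, adjusted p = 0.0431 against starvation and -0.46 ± 0.08, adjusted p = 0.028 against normal growth. RFC2, a small subunit of the clamp loader, had tight metformin readings of 9.58, 9.56 and 9.55 against 10.16, 10.11 and 10.17 in starvation, a change of -0.58 ± 0.05, adjusted p = 0.0137. RFC3, another small subunit, read 10.84, 10.72 and 10.88 in normal growth, 10.77, 10.59 and 10.74 in starvation and 10.54, 10.52 and 10.49 with metformin. Metformin readings lay below the rest, and the change of -0.19 ± 0.07, adjusted p = 0.193 against starvation did not pass, while -0.30 ± 0.06, adjusted p = 0.0355 against normal growth did. RFC1, the large subunit, and RFC4 and RFC5 were at -0.02, -0.02 and -0.11 against starvation, none of them called in any comparison. Of the 5 loader subunits, RFC2 was therefore the one called in both metformin comparisons.

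Of 7 genes for Okazaki fragments and single-strand binding, LIG1 and FEN1 were lower in both metformin comparisons, DNA2 and RNASEH2A against normal growth only, and none of the 3 RPA subunits was called. LIG1, the ligase that seals the fragments, read 8.69, 8.68 and 8.80 in normal growth, 8.60, 8.72 and 8.66 in starvation and 8.0, 8.17 and 7.92 with metformin. Its metformin readings lay at least 0.42 below all others, a change of -0.63 ± 0.08, adjusted p = 0.0224. FEN1, the flap endonuclease, had -0.58 ± 0.07, adjusted p = 0.0198 against starvation and -0.60 ± 0.08, adjusted p = 0.013 against normal growth. DNA2, a nuclease and helicase that trims long flaps, read 8.15, 8.04 and 8.07 in normal growth, 7.99, 7.79 and 7.93 in starvation and 7.65, 7.67 and 7.29 with metformin. The groups were ordered without overlap, with -0.18 ± 0.07, adjusted p = 0.551 in starvation, -0.36 ± 0.12, adjusted p = 0.17 with metformin against starvation and -0.55 ± 0.11, adjusted p = 0.0386 against normal growth, of which only the last passed. RNASEH2A, the catalytic subunit of the enzyme that removes RNA from DNA, followed the same calls (-0.34 ± 0.09, adjusted p = 0.109 and -0.45 ± 0.09, adjusted p = 0.0385). RPA1, RPA2 and RPA3, the subunits of the protein that coats single-stranded DNA, had changes of -0.04, -0.15 and -0.08 against starvation. The 95% interval for RPA1 ran from -0.16 to 0.09. RPA2 had all 3 metformin readings below the 6 others, with -0.15 ± 0.07, adjusted p = 0.293 against starvation (interval -0.32 to 0.01) and -0.25 ± 0.07, adjusted p = 0.0802 against normal growth.

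**Figure D3:**
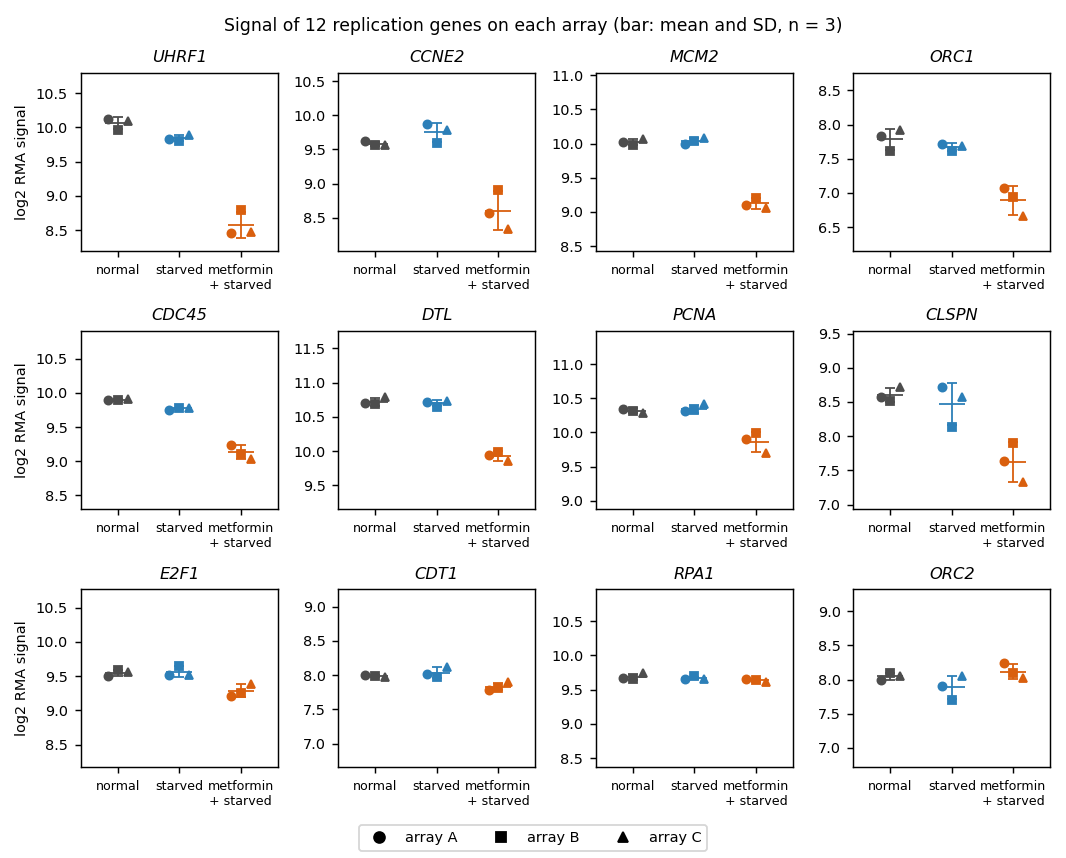
Each panel shows the log2 RMA signal of 1 of 12 replication genes on the 9 arrays, with circles, squares and triangles for arrays A, B and C and bars for the mean and SD of 3 arrays. Every panel spans the same height of 2.6 log2 units around its own mean. UHRF1, CCNE2, MCM2, ORC1, CDC45, DTL, PCNA and CLSPN drop on all metformin arrays, E2F1 and CDT1 by less, and RPA1 and ORC2 overlap between groups.

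Genes that protect the fork or end licensing gave 1 call of 4 against starvation. DTL, the substrate receptor of the ubiquitin ligase that destroys CDT1 in S phase, read 10.70, 10.68 and 10.79 in normal growth, 10.71, 10.65 and 10.73 in starvation and 9.95, 9.99 and 9.85 with metformin. Normal and starved readings overlapped, and all metformin readings were lower, by -0.77 ± 0.06, adjusted p = 0.0119 against starvation. CLSPN, the checkpoint adaptor claspin that travels with the fork, read 8.58, 8.51 and 8.72 in normal growth, 8.72, 8.13 and 8.57 in starvation and 7.63, 7.90 and 7.33 with metformin. Starved array B was 0.44 below the next starved array, and metformin readings spread over 0.57, so the change of -0.85 ± 0.20, adjusted p = 0.0828 did not pass against starvation, while -0.98 ± 0.15, adjusted p = 0.0179 did against normal growth. Its second probe set gave a change of -0.75 ± 0.18, adjusted p = 0.078 against starvation and a change of -0.83 ± 0.14, adjusted p = 0.024 against normal growth, the same calls. TIMELESS and TIPIN, which form the fork protection complex together, had changes of -0.11 and -0.24 against starvation, with overlapping readings.

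Genes that rebuild chromatin and DNA methylation behind the fork included the largest fall among the 57. UHRF1, which recognises hemimethylated DNA and recruits the maintenance methyltransferase, read 10.13, 9.96 and 10.09 in normal growth, 9.83, 9.81 and 9.89 in starvation and 8.46, 8.79 and 8.47 with metformin. Its groups did not overlap, normal growth being highest, and the change was -1.27 ± 0.10, adjusted p = 0.0119 against starvation (2.41-fold lower) and -1.48 ± 0.11, adjusted p = 0.00504 against normal growth, ranking 16 and 17 from the most negative change among 18417 named genes. A second and much dimmer probe set of UHRF1, with a mean of 5.69 over the 9 arrays against 9.49, gave a change of -0.14 ± 0.18, adjusted p = 0.73 against starvation and a change of -0.03 ± 0.12, adjusted p = 0.903 against normal growth, so the fall rests on the brighter one. DNMT1, the maintenance methyltransferase, had -0.32 ± 0.07, adjusted p = 0.0684 against starvation and -0.43 ± 0.07, adjusted p = 0.0217 against normal growth. CHAF1A, the large subunit of the histone chaperone CAF-1, read 9.13, 9.11 and 9.06 in normal growth, 9.15, 9.12 and 9.10 in starvation and 8.77, 8.71 and 8.64 with metformin. Metformin readings were the lowest 3, with -0.42 ± 0.06, adjusted p = 0.0246 against starvation. CHAF1B, the middle subunit of CAF-1, was not called (-0.34 ± 0.10, adjusted p = 0.127), and SLBP, which binds the stem-loop of histone mRNAs, was at -0.15.

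In serum starvation without metformin, the median log2 change was -0.11 over the 10 origin firing genes (9 negative), -0.07 over the 7 genes of single-strand binding and Okazaki fragments (6 negative), 0.03 over the 5 of chromatin assembly and 0.02 over the 3 G1 to S drivers. The 57 log2 changes ran from -0.30 (GINS4) to 0.17 (CCNE2), and 38 were negative and 19 positive, beside 9285 and 9132 of 18417 named genes. Readings of the 2 groups overlapped for 40 of the 57, beside 15382 of 18417 named genes. All 3 starved readings lay below all normal-growth readings for 12 of 57 genes (21.1%), against 9.62% of named genes. They lay above them for 5 of 57, beside 1263 of 18417 named genes. At an unadjusted p under 0.05, limma gave 7 lower (CCNE1, UHRF1, CDC45, MCM10, DNA2, GINS1 and RFC4), against 5.77% of named genes. It gave 1 higher (MCM6), beside 758 of 18417 named genes. At the same threshold the test named in the methods gave 7 of the 57 lower and 4 higher. The matching counts over all named genes were not made for that test, so these 2 numbers cannot be set against the whole array. Neither limma nor that test called any of the 57 after adjustment. The 95% interval of MCM2 in starvation ran from -0.09 to 0.14 and that of PCNA from -0.09 to 0.15, so falls as large as their own with metformin lay outside both. This did not hold for every gene. The starvation interval ran from -0.42 to -0.14 for CCNE1 and from -0.69 to 0.08 for GINS4. These intervals held their changes with metformin against starvation, -0.28 and -0.42.

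**Figure D4:**
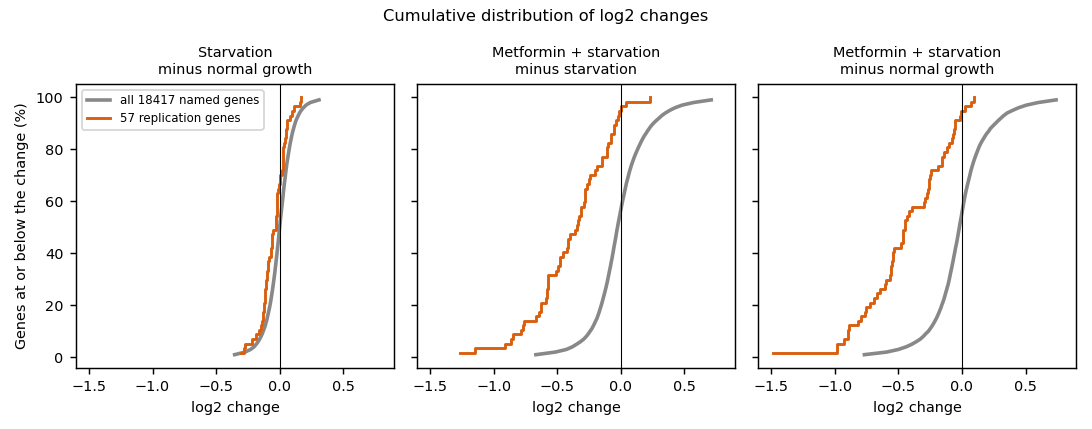
Curves give the share of genes, in percent, at or below each log2 change on the horizontal axis, for the 57 replication genes and for all 18417 named genes (percentiles 1 to 99), in the 3 comparisons. The curves lie close together for starvation against normal growth (medians -0.03 and -0.00072), and the replication curve lies to the left in both metformin comparisons (medians -0.34 against -0.03, and -0.45 against -0.02).

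Sizes were moderate. Of the 21 genes lower with metformin than in starvation, 11 were lower by at least 1.5-fold and 2 by at least 2-fold (UHRF1 and CCNE2), and of the 33 lower than in normal growth these numbers were 17 and 1. Among the 18417 named genes they were 217 and 42 against starvation and 358 and 71 against normal growth. The 24 genes called in neither comparison included CDT1, E2F1, MCM6, the kinase pair CDC7 and DBF4, the 3 RPA subunits, the loader subunits RFC1, RFC4 and RFC5, the fork protection pair TIMELESS and TIPIN, and the origin complex subunits ORC2, ORC3 and ORC6. POLD1 (-0.33) was just inside and POLA2 (-0.41) just outside the threshold against starvation, and against normal growth POLA1 (-0.82, adjusted p = 0.0449) was just inside and E2F1 (-0.26, adjusted p = 0.0628) just outside. Spread between replicates was larger with metformin, where the median SD of the 57 genes was 0.12 (n = 3), against 0.05 in normal growth and 0.06 in starvation. Over all named genes these medians were 0.11, 0.06 and 0.08.

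The neighbouring gene groups, listed by name in the same way, gave the following counts. Over all named genes, 2.89% were called lower and 3.14% higher with metformin against starvation, and 6.36% and 6.15% against normal growth. Of 39 other replication genes, such as further origin, checkpoint, histone chaperone and cohesion factors, 8 were lower with metformin than in starvation and none was higher, with a median change of -0.18. The largest were ESCO2 (-0.92, adjusted p = 0.0301), a cohesin acetyltransferase, CDC25A (-0.63, adjusted p = 0.0198), the phosphatase that activates CDK2, TICRR (-0.61, adjusted p = 0.0291), a firing factor, and CDCA5 (-0.56, adjusted p = 0.0198), a cohesin protector. Of 13 genes for dNTP supply 4 were lower, namely RRM2 of ribonucleotide reductase (-1.10, adjusted p = 0.019), TK1 (-0.81, adjusted p = 0.014), TYMS (-0.58, adjusted p = 0.0169) and DCTPP1 (-0.36, adjusted p = 0.045). Of 18 genes of the RB, E2F and DREAM circuit 4 were lower: MYBL2 (-0.82, adjusted p = 0.0118), E2F2 (-0.58, adjusted p = 0.0347), E2F7 (-0.57, adjusted p = 0.0169) and E2F8 (-0.50, adjusted p = 0.0277). RB1, the gene of RB itself, had mean readings of 3.53 in starvation and 3.55 in normal growth, far below the array medians of 6.04 to 6.16. Whether RB acts on E2F in these cells was not tested. Of 11 genes for D-type cyclins and CDK inhibitors, CDKN1A, the inhibitor p21 (-0.63, adjusted p = 0.0419), and CCND3 (-0.55, adjusted p = 0.0165) were lower, and of 8 reference genes none was called. Against normal growth, 12 of the other replication genes were lower and BAZ1A was higher (0.36, adjusted p = 0.0471), 6 genes for dNTP supply were lower, 7 of the RB, E2F and DREAM circuit were lower and E2F5 was higher (0.22, adjusted p = 0.0426), 2 of the cyclin and inhibitor list were lower, and the reference gene B2M was higher (0.30, adjusted p = 0.047). All 3 metformin arrays lay below all 3 starved arrays for 76.9% of the dNTP supply genes, near the 73.7% of the 57 replication genes. For the other replication genes this share was 56.4%, and for the RB, E2F and DREAM circuit 38.9%, beside 15.2% of all named genes. Against normal growth these shares were 76.9%, 78.9%, 71.8% and 61.1%, beside 19% of all named genes.

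The 29 mitotic genes had a median change of -0.20 in starvation, without a call. All 3 starved arrays lay below all 3 normal-growth arrays for 24 of 29, against 9.62% of named genes. At an unadjusted p under 0.05, 20 of 29 were lower, against 5.77% of named genes (1062), and none after adjustment (limma). With metformin against starvation 3 of 29 were lower (BIRC5 at -0.37, CDCA8 at -0.34 and DLGAP5 at -0.33) at a median of -0.15, and against normal growth 16 of 29 at a median of -0.34. For the replication genes these medians were -0.03 in starvation, -0.34 with metformin against starvation and -0.45 against normal growth. All 3 metformin arrays lay below all 3 starved arrays for 41.4% of mitotic genes and below all 3 normal-growth arrays for 93.1%. For the replication genes these shares were 73.7% and 78.9%, and for all named genes 15.2% and 19%. The difference between the lists was not tested. An E2F word stood in 3 of 25 mitotic genes with a promoter window, 6 of 33 other replication genes, 3 of 13 genes for dNTP supply and 5 of 15 of the RB, E2F and DREAM circuit, beside 26 of 49 replication genes.

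**Figure D5:**
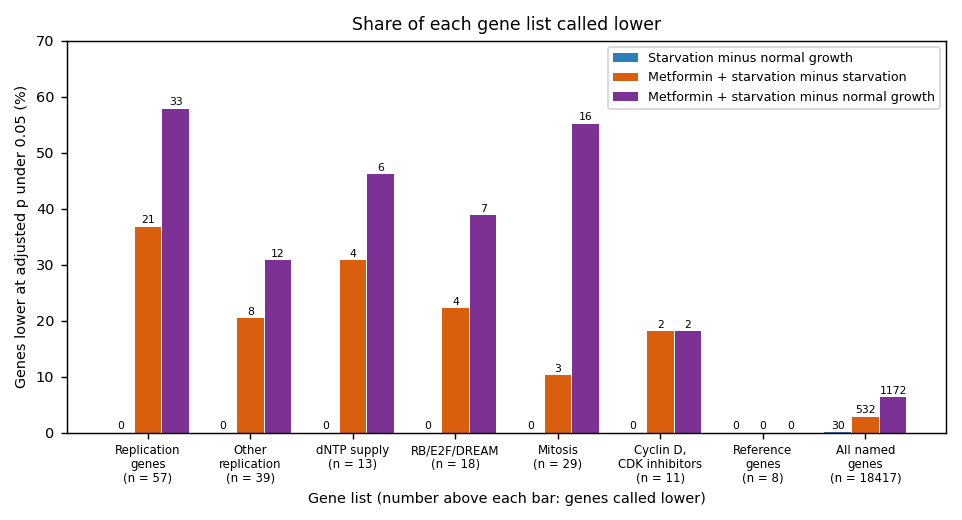
Bars give the percent of each gene list called lower at an adjusted p under 0.05 in the 3 comparisons, with the number of genes above each bar and the number measured under each list. Replication genes reach 36.8% and 57.9% in the metformin comparisons, all named genes 2.89% and 6.36%, and of the lists plotted only all named genes holds calls in starvation.

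Cell identity markers were read beside these results. In the metformin cultures, 3 adrenocortical markers of 10 were lower than in starvation (HSD3B2, SULT2A1 and NR5A1) and MC2R was higher, and none of 10 fibroblast, 8 endothelial, 7 immune and 9 epithelial markers was called. Against normal growth 4 adrenocortical markers were lower, MC2R (2.3-fold, adjusted p = 0.02) and the epithelial marker EPCAM (1.48-fold, adjusted p = 0.0342) were higher, and no fibroblast, endothelial or immune marker was called. In starvation alone HSD3B2 was lower (-1.99, adjusted p = 0.00648), the only marker called there. The part of these adrenal changes in the replication result was not tested.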

How the data were processed

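Total RNA of 9 H295R cultures was hybridised to GeneChip Human Gene 1.0 ST arrays, 3 per condition, grouped by the sample titles. The deposited values are log2 signals that, per the labels, the authors made with RMA in Affymetrix Expression Console. The study's methods name Affymetrix Power Tools and Benjamini-Hochberg adjustment, and the labels also name limma. RMA corrects background and forces the arrays to 1 distribution, so a shift shared by most genes would not be seen. Arrays give no read depth, and their number limits the precision.

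From these values limma 3.58.1 in R 4.3.3 (lmFit and eBayes) was fitted on the 6 arrays of each comparison, with Benjamini-Hochberg adjustment over all 33297 probe sets and a threshold of 0.05. The fit was tested on simulated data. Each gene was read from its brightest probe set (mean over 9 arrays) among 19460 probe sets with 1 symbol in the platform annotation, and 1754 with several symbols were left out. For all 57 replication genes the Entrez identifier gave the same symbol in RefSeq. Of them, CLSPN and UHRF1 had 2 probe sets, and 4 (MCM6, DBF4, RFC5 and RPA1) had equal values on 2 arrays of a group, none on 3.

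The replication genes and the other lists were chosen with earlier results of these data known. Genes given with all readings were the 12 with the largest absolute change in each comparison and MCM2, ORC1, CDC6, CDT1, CDC45, GINS2, PCNA, POLA1, RFC3, CHAF1A, E2F1 and CCNE2. Genes of the neighbouring lists were named if they were among the 4 largest called changes.

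The alternatives refitted the values over all 9 arrays together, after equalising the array medians, after a further quantile normalization, without dim probe sets (below the 40th percentile), with only the single-gene probe sets, on averages over each gene's probe sets, with eBayes set to its trend and robust options, with the Student t-test that the methods name for quantitative data, with the letters A to C as a replicate block, without each array in turn, and with array weights, an alternative chosen after seeing the data.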

Additional observations from a re-analysis of the deposited data

How the results depend on the processing

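No replication gene was called higher under any alternative in any of the 3 comparisons, none was called in starvation against normal growth, no called gene changed sign, and each median change moved by less than the spread between replicates. In what follows, the first number is the count called lower with metformin against starvation (21) and the second that against normal growth (33). The methods' t-test gave 12 and 14. A common array median gave 14 and 34, quantile normalization again 25 and 33, trend and robust options 25 and 34, single-gene probe sets 27 and 36, no dim probe sets 28 and 36, array weights (chosen after seeing the data) 28 and 36, a fit over 9 arrays 31 and 35, and mean probe sets 21 and 33. Over all named genes, the same counts were 532 and 1172 in the main fit and 264 and 609 by the t-test. They were 264 and 1137 with a common median, 756 and 1359 after quantile normalization and 876 and 1526 with trend and robust options. Single-gene probe sets gave 927 and 1735, no dim probe sets 938 and 1697, and array weights 1095 and 1751. The fit over 9 arrays gave 1192 and 1676, and mean probe sets 521 and 1160. Leaving out each array in turn gave 0 to 17 and 9 to 33 of the 57 genes, beside 0 to 312 and 187 to 1246 of all named genes. With the replicate letter as a block, limma called 0 and 0, as it did for all named genes called lower. In the block fit 35 and 37 of the 57 were lower at an unadjusted p under 0.05, which was not counted over all named genes. In the main fit these numbers were 38 and 42, beside 2085 and 2765 of 18417 named genes. Every other tool run is given above. Whether letters mark shared experiments is not stated: correlations of deviations from group means between arrays of the same letter were 0.09, 0.13 and 0.02 for normal growth with starvation, -0.09, 0.0098 and -0.16 for normal growth with metformin, and 0.29, -0.14 and -0.25 for starvation with metformin, and not every array correlated best with its own letter. The block and each omission leave fewer residual degrees of freedom, the same number for every omission, and the omissions differed in the calls left. Against starvation, 14 and 17 of the 57 genes were still called without metformin arrays B and C, beside 282 and 312 named genes called lower. The count was 0 without metformin array A and without starved array A, B or C. The cause of the lost calls was not tested. Arrays carry no depth; the dim gene DBF4 was the only replication gene below every array median.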
